A study of Mus musculus with 28 samples.

Results

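The 49 genes described here carry out or control DNA replication and mitosis. They were taken by name from the table of raw gene counts and fell into 28 mitosis genes (Mki67, Top2a, Bub1, Bub1b, Ccnb1, Ccnb2, Ccna2, Cdk1, Cdc20, Plk1, Aurka, Aurkb, Birc5, Cenpa, Cenpe, Cenpf, Kif11, Kif20a, Kif2c, Kif4, Tpx2, Nusap1, Prc1, Ube2c, Hmmr, Ect2, Ttk and Foxm1) and 21 replication genes (Mcm2, Mcm3, Mcm4, Mcm5, Mcm6, Mcm7, Pcna, Rrm1, Rrm2, Tyms, Tk1, Ccne1, Ccne2, Cdc6, Cdc45, Cdt1, E2f1, E2f8, Gins2, Chek1 and Brca1). All 49 were among the 29068 genes of the table and among the 18107 tested. RNA from skin of C57BL/6J mice, wild type for Mlkl, gave 28 libraries from 7 stages of natural wound healing after a full-thickness punch wound to the back, 4 per stage. The stages were Day0, Day3, Day5, Day7, Day10, Day12 and Day14 in the labels. The earliest group keeps the labels' name, day 0, and served as the reference. The study itself lists its first day as day 1 and defines it as the day of wounding. No knockout or drug treatment entered these libraries, and the whole wound site, with scab and margins, was taken from adult mice. The labels number the replicates without saying that each came from its own animal, so that P-values measure the spread between these samples. Total counts lay between 36706513 and 40655764 per library, and levels are given as CPM, counts scaled to the library size with edgeR's trimmed-mean factors.

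A dividing cell copies its DNA in S phase and separates the copies in mitosis. The Mcm2 to Mcm7 proteins form the helicase that opens DNA at replication origins, where Cdc6 and Cdt1 load it, and Cdc45 and the GINS complex activate it. Pcna clamps the polymerases to DNA, and Rrm1, Rrm2, Tyms and Tk1 supply nucleotides. Later, Cdk1 with its B-type cyclins drives entry into mitosis, while Plk1 and the Aurora kinases build and steer the spindle. Bub1, Bub1b and Ttk hold chromosomes at the spindle checkpoint. Cdc20 and Ube2c direct the breakdown of cyclins that ends mitosis. In healing skin, keratinocytes at the wound margin, fibroblasts and endothelial cells of granulation tissue and, later, matrix cells of regrowing hair follicles are all known to divide.

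Transcripts of both classes rose after injury and reached their peak at the end of the series. Every one of the 49 genes had its lowest mean CPM on day 0, and 48 had their highest on day 14, the exception being E2f1, which peaked on day 10. In edgeR (quasi-likelihood F-test, Benjamini-Hochberg correction), 45 of the 49 were higher on day 3 than on day 0, beside 31.8% of all genes tested. They were 27 mitosis and 18 replication genes. On day 5 the count was 44 (29% of all genes), on day 7 it was 43 (25.6%), on day 10 all 49 (23.5%), on day 12 it was 48 (21.7%) and on day 14 all 49 (28.2%). In each of these 6 comparisons, 0 members were lower by edgeR, 0 at an unadjusted p under 0.05 and 0 by DESeq2, beside 34.8%, 30.6%, 24.8%, 26.9%, 25.6% and 34.5% of all genes. The 6 comparisons share the day 0 libraries. The fit gave each gene 1 spread for all 7 days, while the members' median SD of log2 CPM was 0.555 on day 0. It was 0.083 to 0.111 on later days. Standard errors and P-values against day 0 can thus be too small. With the 8 libraries of a comparison alone, 40, 33, 29, 46, 46 and 49 members were higher on days 3, 5, 7, 10, 12 and 14. Because whole tissue was sequenced, more cells in the cycle and more RNA per cycling cell cannot be told apart.

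**Figure D1:**
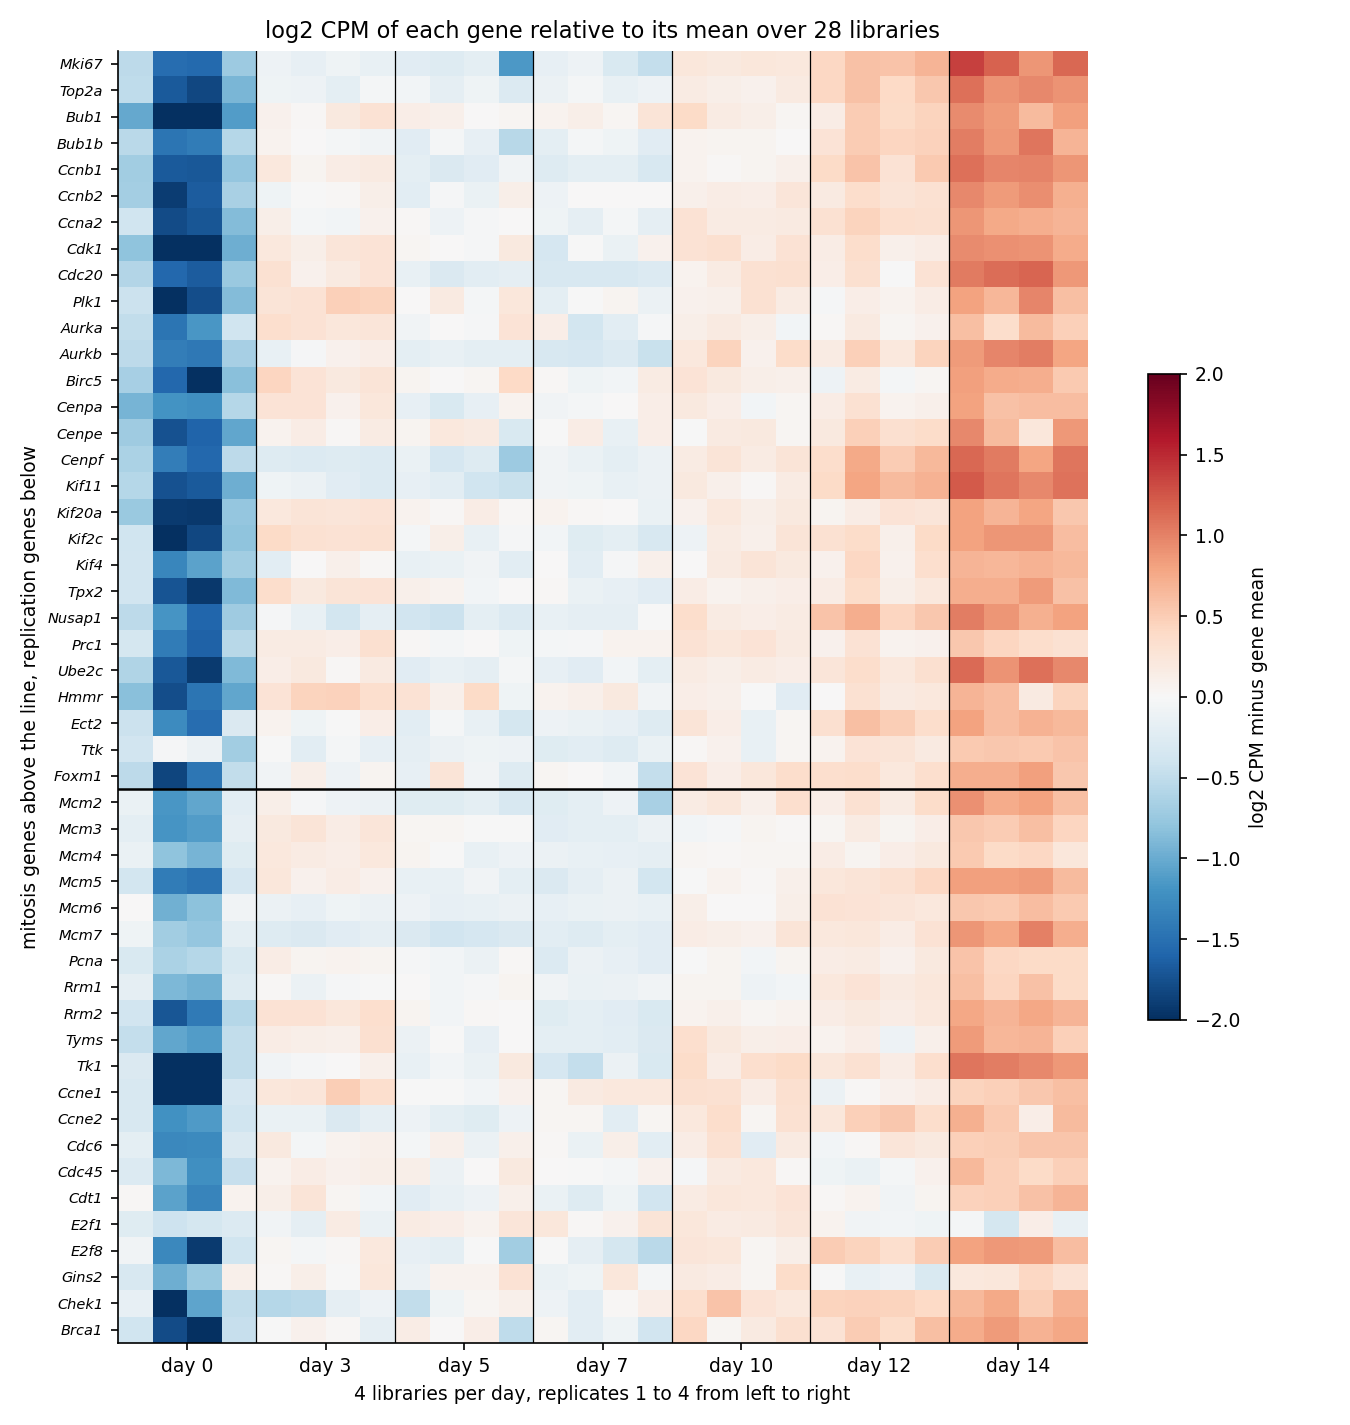
Heat map of the 49 genes (rows) in the 28 libraries (columns, 4 per day, replicates 1 to 4 from left to right); colour gives log2 CPM minus the gene's mean over all libraries, with the scale ending at -2 and 2. Day 0 is the bluest block and day 14 the reddest, and within day 0 replicates 1 and 4 are paler than replicates 2 and 3 for 48 of the 49 genes.

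The mitosis genes changed by more than the replication genes at every time point. The median log2 fold change against day 0 of the 28 mitosis genes was 1.12, 0.93, 0.94, 1.24, 1.40 and 1.91 on days 3, 5, 7, 10, 12 and 14. The median of the 21 replication genes was 0.67, 0.55, 0.49, 0.78, 0.78 and 1.23 on these days, while the median of all genes tested stayed between -0.06 and 0.00. Under the criteria of the study, a log2 fold change over 1.5 with an unadjusted p under 0.05, the number of mitosis genes called higher was 4, 1, 1, 2, 9 and 23 of 28. The number of replication genes was 6 of 21 on day 14 and 0 on each earlier day, when edgeR's adjusted p without a fold limit called 18, 17, 16, 21 and 20 and DESeq2's called 43 to 49 of the 49 members. Of all genes, 6.5%, 5.61%, 4.66%, 4.33%, 3.89% and 5.15% met these criteria in the same direction.

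**Figure D2:**
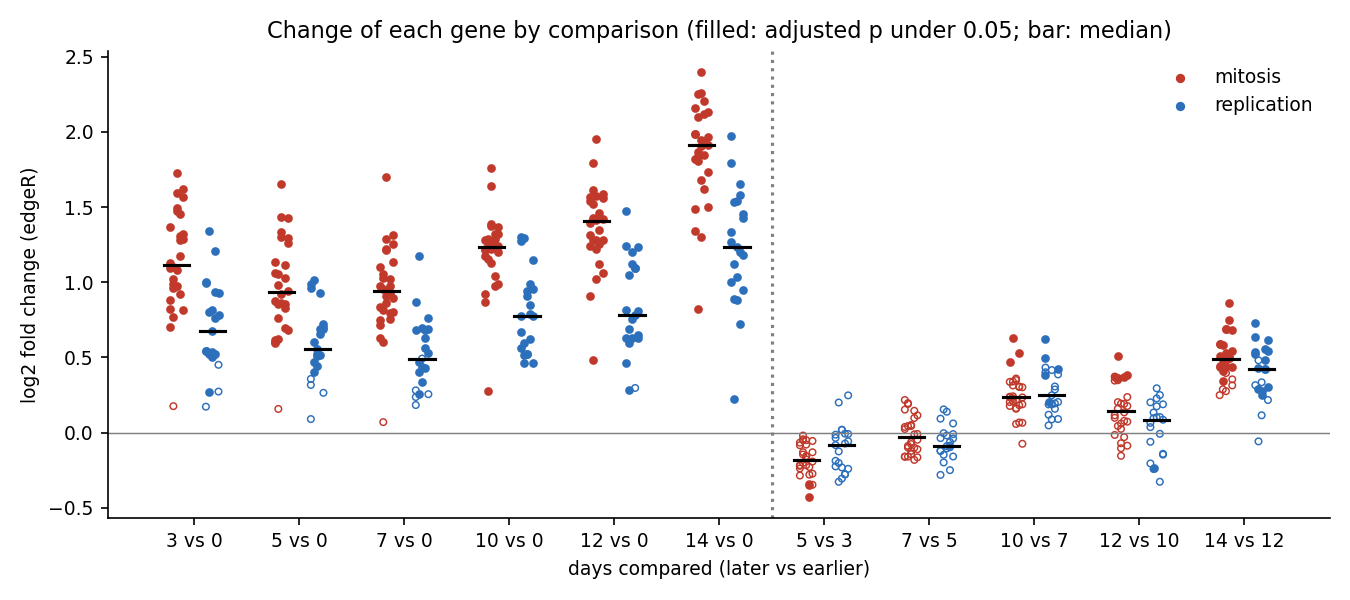
log2 fold change of each of the 49 genes in the 6 comparisons with day 0 and the 5 comparisons of consecutive days (red, 28 mitosis genes; blue, 21 replication genes; filled points, adjusted p under 0.05 in edgeR; black bars, class medians). The mitosis median rises from 1.12 on day 3 to 1.91 on day 14 against day 0, above the replication median at every day, and among consecutive days the step from day 12 to day 14 has the most filled points.

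The classes were also compared within each library. The mean log2 CPM over the mitosis genes was below that over the replication genes in all 4 day 0 libraries, with a difference between -0.29 and -0.18. It was above in all 24 later libraries. The lowest and highest differences were 0.20 and 0.23 (day 3), 0.07 and 0.17 (day 5), 0.15 and 0.23 (day 7) and 0.13 and 0.20 (day 10). They were 0.22 and 0.39 (day 12) and 0.35 and 0.43 (day 14), so that days 10 and 14 did not overlap, while the ranges of days 5, 7 and 10 did. As a share of the summed CPM of the 49 genes, mitosis genes made up 47.4% ± 2.3 (SD, n = 4) at day 0, 56.6% ± 0.22 at day 3 and 61.5% ± 1.1 at day 14. The members were chosen with results of these data known, so that these class differences are given without a test.

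**Figure D3:**
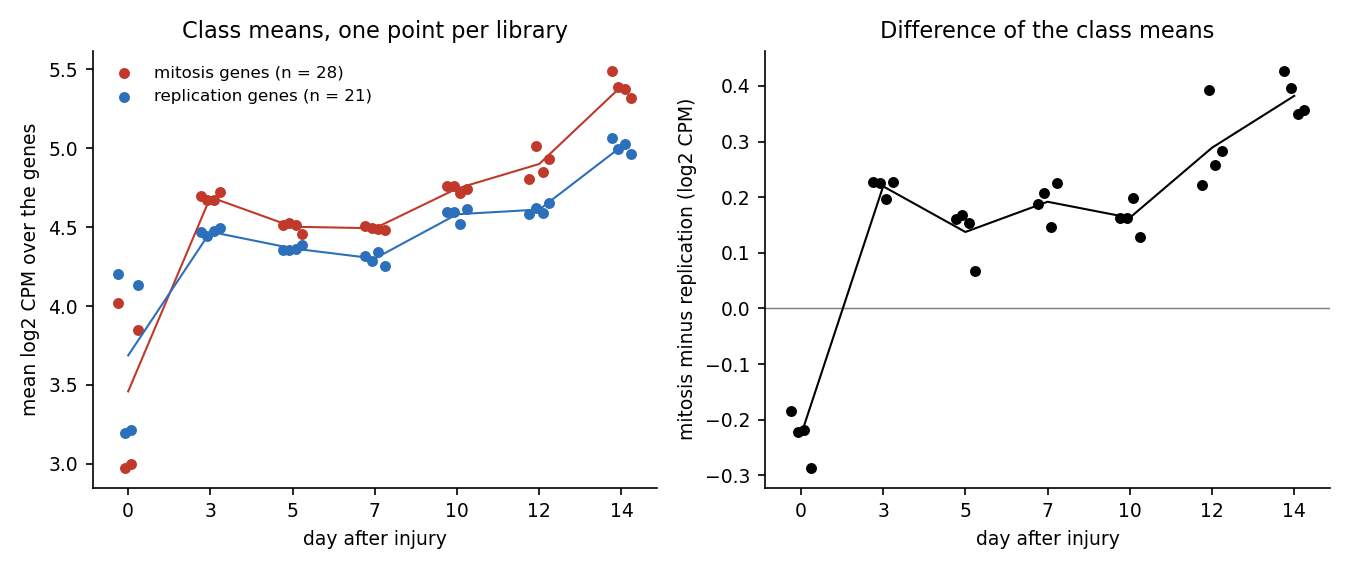
Left, mean log2 CPM over the 28 mitosis genes (red) and the 21 replication genes (blue) in each library by day, with lines through the day means; right, their difference. All 4 day 0 libraries lie below 0 in the right panel, between -0.29 and -0.18, and all later libraries above it, up to 0.43 on day 14. CPM is not divided by gene length, so that the side of 0 depends on the lengths of the genes.

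The promoters of the members were searched for elements known to time transcription in the cell cycle. The cell cycle genes homology region (CHR) and CCAAT boxes are known binding elements of late cell cycle promoters, read by the DREAM and B-Myb/FoxM1 complexes and by NF-Y, and E2F sites are known elements of promoters that fire at the start of S phase. RefSeq promoter windows on GRCm38.p6, 250 bases before to 50 after the start site, matched 41 of the 49 genes (44 windows, since some genes have more than 1 start). TTTGAA or TTCGAA, taken as the CHR on either strand, was in 21 of 25 mitosis windows (84.0%) and 4 of 19 replication windows (21.1%), beside 19.2% of all 32851 windows. CCAAT on either strand was in 88.0% of mitosis, 63.2% of replication and 37.4% of all windows. E2F sites, taken as TTCCCGC or TTCGCGC or TTGCCGC or TTGGCGC on either strand, were in 24% of mitosis, 63.2% of replication and 9.57% of all windows. A pair of CCAAT boxes on the same strand with starts 31 to 33 bases apart, the spacing known from mitotic promoters, was in 6 mitosis windows (24%), in 0 replication windows and in 0.794% of all windows. A match is a description of the letters and not a measured site, the windows were not matched for base composition, and E2F and CCAAT matches can overlap.

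These 5 promoters show these arrangements, given as the 180 bases before the start site, 5′ to 3′ on the gene's strand, with every motif match in capitals. Ccnb1 and Ccnb2 hold CCAAT boxes at the fixed spacing, and Ccnb1 also holds an E2F match and no CHR. Cdk1 holds E2F, CCAAT and CHR matches together, and Cdc20 holds a CHR between a pair of CCAAT boxes. Mcm5, a replication gene, holds overlapping E2F matches with CCAAT and no CHR. The replication genes Rrm2 and E2f1 were also extracted and do not show that arrangement. In their 180 bases Rrm2 has a CCAAT match and no E2F or CHR match, and E2f1 has no match. Rrm2 has an E2F match elsewhere in its window.
Ccnb1 (chr13:100786487-100786666, minus strand): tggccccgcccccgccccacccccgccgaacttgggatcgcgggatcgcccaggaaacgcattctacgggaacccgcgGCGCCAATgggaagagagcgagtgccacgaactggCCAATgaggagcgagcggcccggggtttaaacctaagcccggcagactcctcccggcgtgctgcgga
Ccnb2 (chr9:70421555-70421734, minus strand): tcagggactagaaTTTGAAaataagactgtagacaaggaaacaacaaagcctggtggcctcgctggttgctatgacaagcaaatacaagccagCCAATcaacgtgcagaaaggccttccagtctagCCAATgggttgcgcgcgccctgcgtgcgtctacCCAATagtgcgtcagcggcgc
Cdk1 (chr10:69352913-69353092, minus strand): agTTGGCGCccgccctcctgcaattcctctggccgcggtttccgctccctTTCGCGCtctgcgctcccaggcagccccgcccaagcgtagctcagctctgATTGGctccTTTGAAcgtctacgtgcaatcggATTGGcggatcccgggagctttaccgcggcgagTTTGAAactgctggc
Cdc20 (chr4:118437344-118437523, minus strand): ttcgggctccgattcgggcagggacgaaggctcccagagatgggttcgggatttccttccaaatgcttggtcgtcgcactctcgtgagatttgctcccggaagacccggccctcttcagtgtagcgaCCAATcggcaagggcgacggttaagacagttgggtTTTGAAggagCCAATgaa
Mcm5 (chr8:75109329-75109508, plus strand): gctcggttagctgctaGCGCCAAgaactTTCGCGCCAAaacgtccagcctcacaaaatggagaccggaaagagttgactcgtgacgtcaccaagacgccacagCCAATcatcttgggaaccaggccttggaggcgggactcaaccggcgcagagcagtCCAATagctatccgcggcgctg

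Among the kinases and cyclins that start mitosis, Cdk1 stood at 18.6, 7.45, 7.65 and 16.6 CPM in day 0 replicates 1 to 4, at 37.7, 35.4, 38.7 and 39.3 CPM on day 3 and at 62.7, 61.6, 61.0 and 54.7 CPM on day 14. All later libraries were above the highest day 0 library. Its log2 fold change against day 0 was 1.59 ± 0.18 (SE) on day 3 and 2.26 ± 0.18 on day 14 (edgeR, adjusted p = 9.12e-09 and 1.69e-11). Ccnb1, cyclin B1, which binds Cdk1, stood at 17.6, 8.84, 8.79 and 16.6 CPM on day 0 and at 33.1, 29.4, 31.7 and 32.4 CPM on day 3. It then stood at 23.8, 24.9, 24.9 and 22.7 CPM on day 7 and at 61.0, 56.1, 56.7 and 52.5 CPM on day 14. The day 7 libraries thus lay between those of day 0 and day 3 without overlap, and the log2 fold change on day 14 was 2.13 ± 0.14 (edgeR, adjusted p = 6.27e-13). Plk1, Polo-like kinase 1, stood at 14.1, 3.23, 5.57 and 10.5 CPM on day 0, at 22.8, 23.5, 26.7 and 25.9 CPM on day 3 and 33.3, 30.2, 37.6 and 29.1 CPM on day 14. Aurkb, the kinase of the chromosomal passenger complex, went from 10.8, 5.89, 5.73 and 9.77 CPM on day 0 to 14.0, 15.3, 16.5 and 16.9 CPM on day 3, and to 28.1, 30.5, 31.6 and 26.8 CPM on day 14. Both were higher on every later day than on day 0, without overlap between the libraries, and their log2 fold changes on day 14 were 1.96 ± 0.22 and 1.86 ± 0.14 (edgeR, adjusted p = 1.73e-08 and 5.34e-12).

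The spindle checkpoint kinases held both the highest and the lowest change of the mitosis class. Bub1 stood at 5.55, 1.97, 2.46 and 5.18 CPM on day 0, at 12.0, 11.4, 12.9 and 13.8 CPM on day 3 and at 21.7, 20.4, 17.5 and 19.97 CPM on day 14. No library of a later day overlapped day 0. Its log2 fold change was the highest of the 28 genes on every day, from 1.65 ± 0.19 on day 5 to 2.40 ± 0.19 on day 14 (edgeR, adjusted p = 2.05e-08 and 1.67e-11). Ttk, the kinase known as Mps1, stood at 8.21, 10.5, 9.88 and 6.57 CPM on day 0, at 10.6, 9.25, 10.4 and 9.52 CPM on day 3 and at 15.4, 15.6, 15.4 and 15.9 CPM on day 14. It was the 1 member whose day 0 libraries 2 and 3 were the highest, and its day 3, 5, 7 and 10 libraries overlapped day 0. Its log2 fold changes were 0.18 ± 0.10, 0.16 ± 0.10 and 0.07 ± 0.10 on days 3, 5 and 7 (edgeR, adjusted p = 0.118, 0.173 and 0.581), the only mitosis gene not past the threshold on these days, and reached 0.83 ± 0.10 on day 14 (adjusted p = 3.55e-08). Ttk passed the threshold on day 3 without day 0 replicate 2 (0.28) or without day 3 replicate 2 or 4 (0.26 and 0.25), and on day 5 without day 0 replicate 2 (0.25). Its day 10 call was lost without day 0 replicate 1 or 4 or day 10 replicate 2, and when the 8 libraries of days 0 and 10 were fitted alone (adjusted p = 0.0549, 0.113, 0.0573 and 0.162).

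Of the spindle and chromosome proteins, Birc5, survivin of the passenger complex, stood at 11.5, 6.12, 3.99 and 10.3 CPM on day 0, at 24.6, 22.0, 20.9 and 21.9 CPM on day 3 and at 32.4, 30.5, 30.1 and 26.4 CPM on day 14. Kif11, the motor that pushes spindle poles apart, stood at 20.7, 9.17, 9.54 and 15.6 CPM on day 0, at 29.0, 28.3, 26.3 and 25.3 CPM on day 3 and at 71.8, 64.8, 59.8 and 65.3 CPM on day 14. Neither overlapped day 0 on any later day. Birc5 rose by 1.49 ± 0.18 log2 units by day 3 and by 1.91 ± 0.18 by day 14, and Kif11 by 0.99 ± 0.15 and 2.25 ± 0.16 (edgeR, adjusted p between 1.03e-12 and 2.50e-06). Top2a, the topoisomerase that untangles sister chromatids, stood at 64.3, 28.7, 26.1 and 48.7 CPM on day 0, 86.8, 85.1, 80.5 and 89.0 CPM on day 3 and 198, 171, 178 and 171 CPM on day 14, a rise of 2.10 ± 0.16 log2 units by day 14 (edgeR, adjusted p = 8.88e-12). Mki67, the proliferation antigen Ki-67 that coats mitotic chromosomes, stood at 109, 54.1, 52.9 and 94.4 CPM on day 0 and 145, 139, 147 and 141 CPM on day 3. It stood at 134, 130, 135 and 70.3 CPM on day 5 and 402, 352, 287 and 343 CPM on day 14. Day 5 replicate 4 alone overlapped day 0, and the log2 fold changes were 0.60 ± 0.18 by day 5 and 2.16 ± 0.19 by day 14 (edgeR, adjusted p = 0.00568 and 8.62e-11). The day 5 call was lost when the 8 libraries of both days were fitted alone (0.58, adjusted p = 0.101). Foxm1, a transcription factor of mitotic genes, stood at 15.3, 6.12, 8.01 and 15.5 CPM on day 0, 20.9, 23.8, 20.4 and 22.9 CPM on day 3 and 36.3, 36.5, 38.9 and 32.0 CPM on day 14. Its log2 fold change on day 14 was 1.68 ± 0.18 (adjusted p = 7.75e-09), below the median of its class.

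The helicase subunits differed among themselves. Mcm5 stood at 31.4, 15.3, 14.4 and 32.1 CPM on day 0, at 47.3, 42.8, 45.0 and 42.8 CPM on day 3 and at 71.7, 71.2, 73.1 and 62.6 CPM on day 14. Mcm2 stood at 34.0, 16.6, 18.2 and 32.1 CPM on day 0, at 40.5, 36.8, 35.0 and 34.4 CPM on day 3 and at 70.7, 62.2, 64.9 and 56.9 CPM on day 14. For both, day 3 and day 14 libraries were all above day 0, and the log2 fold changes were 0.93 ± 0.16 and 0.54 ± 0.15 on day 3 and 1.58 ± 0.16 and 1.34 ± 0.15 on day 14 (edgeR, adjusted p between 1.63e-09 and 0.00279). The day 3 call of Mcm2 was lost with its 8 libraries alone (adjusted p = 0.0646). Mcm2 overlapped day 0 on days 5 and 7 and missed the threshold there, with log2 fold changes of 0.32 ± 0.15 and 0.28 ± 0.15 (adjusted p = 0.0747 and 0.127), but passed it on both days without day 0 replicate 1 (0.51 and 0.46) or replicate 4 (0.47 and 0.42) and on day 7 without day 7 replicate 4 (0.38). Mcm7 stood at 45.2, 29.7, 28.1 and 42.1 CPM on day 0, at 40.3, 39.5, 41.2 and 42.5 CPM on day 3 and at 89.3, 82.8, 97.1 and 79.6 CPM on day 14. None of its day 3 libraries lay above the highest of day 0, and the log2 fold changes for days 3, 5 and 7 were 0.17 ± 0.10, 0.09 ± 0.10 and 0.18 ± 0.10 (edgeR, adjusted p = 0.119, 0.437 and 0.119). By day 14 it was 1.27 ± 0.10 (adjusted p = 9.51e-12). Mcm6 likewise missed the threshold on days 3, 5 and 7, with log2 fold changes of 0.27, 0.27 and 0.26 (edgeR, adjusted p = 0.0551, 0.0686 and 0.0888). Without day 0 replicate 1, both passed it on these days, with 0.49, 0.44 and 0.42 for Mcm6 and 0.35, 0.23 and 0.31 for Mcm7. Without day 0 replicate 4, Mcm6 passed it on all these days and Mcm7 on days 3 and 7. On day 3 Mcm6 also passed it without any 1 day 3 library, with DESeq2, with DESeq2 size factors and with the replicate number as a block (adjusted p between 0.0329 and 0.0493), and on day 5 with that block (0.0494). Cdt1, the loading factor, stood at 14.3, 6.70, 5.65 and 14.9 CPM on day 0, at 15.3, 17.02, 14.6 and 13.7 CPM on day 3 and at 19.5, 19.8, 21.2 and 22.7 CPM on day 14. It overlapped day 0 on days 3, 5, 7 and 12, missed the threshold on days 5 and 7 (edgeR, adjusted p = 0.0988 and 0.300), and rose by 1.00 ± 0.18 log2 units by day 14 (adjusted p = 3.07e-05). It passed on day 5 without day 0 replicate 1 or 4 (0.57 and 0.60) and on day 7 without day 0 replicate 4 (0.46). Its calls on days 3 and 12 were lost without day 0 replicate 2 or 3, and that on day 12 also without day 12 replicate 1, 2 or 4. With the 8 libraries of a comparison alone, its calls on days 3, 10 and 12 were lost (adjusted p = 0.153, 0.0803 and 0.232), as was that of Mcm6 on day 10 (0.0784).

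Pcna had the highest level per transcript length of all 49 genes on each of the 7 days. Its deposited FPKM, which divides by gene length, was 58.9 ± 6.9 (SD, n = 4) on day 0 and 118.9 ± 8.1 on day 14, beside a median over the 49 genes of 3.68 and 14.2, and Chek1, a checkpoint kinase of S phase, was lowest at 0.625 ± 0.30 and 1.87 ± 0.19. In CPM, Pcna stood at 83.4, 66.6, 69.7 and 84.0 on day 0 and at 114, 107, 108 and 108 on day 3. It stood at 85.9, 95.5, 92.3 and 88.6 on day 7 and at 154, 138, 135 and 135 on day 14. All later libraries were above all day 0 libraries, and the log2 fold change went from 0.53 ± 0.06 on day 3 to 0.25 ± 0.06 on day 7 and 0.89 ± 0.06 on day 14 (edgeR, adjusted p = 3.45e-08, 0.00139 and 2.08e-12). The day 7 call was lost with the 8 libraries of days 0 and 7 alone (0.22, adjusted p = 0.0522). By the same FPKM scale Ube2c, the E2 enzyme of the anaphase-promoting complex, went from 11.7 ± 4.9 to 59.1 ± 3.5, the second-highest level on day 14.

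The enzymes of nucleotide supply were all higher than day 0 on days 3, 7 and 14, and Rrm2, Tyms and Tk1 stood nearer to day 0 on day 7 than on day 3. Rrm2, the regulated subunit of ribonucleotide reductase, stood at 24.6, 9.70, 12.0 and 21.5 CPM on day 0 and at 39.3, 39.0, 37.7 and 40.3 CPM on day 3. It stood at 27.2, 28.1, 27.3 and 26.0 CPM on day 7 and at 55.0, 51.4, 55.1 and 51.2 CPM on day 14. Tyms, thymidylate synthase, stood at 16.9, 11.4, 10.8 and 16.7 CPM on day 0 and at 26.0, 25.4, 25.2 and 29.3 CPM on day 3. It stood at 20.4, 20.4, 20.4 and 19.2 CPM on day 7 and at 42.7, 37.1, 37.6 and 32.6 CPM on day 14. In both, the 4 libraries of day 7 lay between those of day 0 and those of day 3. The log2 fold changes against day 0 on days 3, 7 and 14 were 1.21, 0.68 and 1.65 for Rrm2 (SE 0.16 on each) and 0.93, 0.53 and 1.43 for Tyms (SE 0.11), all past the threshold in edgeR (adjusted p up to 0.000572). Rrm1, the large subunit of ribonucleotide reductase, stood at 73.7, 44.7, 42.8 and 69.9 CPM on day 0 and at 85.2, 77.2, 82.2 and 83.2 CPM on day 3. It stood at 79.5, 76.4, 77.4 and 79.3 CPM on day 7 and at 127, 112, 125 and 108 CPM on day 14. Its day 3 and day 7 libraries overlapped, with log2 fold changes against day 0 of 0.51 and 0.44, and the change by day 14 was 1.03 ± 0.11 (edgeR, adjusted p = 0.000225, 0.0016 and 5.21e-09). Tk1, thymidine kinase 1, stood at 17.4, 5.28, 5.18 and 15.2 CPM on day 0, at 20.4, 20.9, 21.4 and 22.9 CPM on day 3 and at 16.8, 15.2, 19.6 and 17.1 CPM on day 7. The day 7 libraries overlapped day 0, and the log2 fold changes were 0.99 ± 0.23 by day 3 and 0.68 ± 0.23 by day 7 (edgeR, adjusted p = 0.000381 and 0.0144). The day 7 call was lost without day 0 replicate 2 (0.46) or replicate 3 (0.45). With the 8 libraries of days 0 and 7 alone, the day 7 calls of Tk1, Rrm1 and Rrm2 were lost (adjusted p = 0.19, 0.0742 and 0.0651), as was that of Tk1 on day 5 in its own 8 (0.0558). On day 14 Tk1 stood at 44.8, 43.2, 41.3 and 38.8 CPM, the highest log2 fold change of the replication class on that day at 1.97 ± 0.23 (adjusted p = 2.16e-08).

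The regulators of S phase entry followed separate courses. Ccne1, cyclin E1, which activates Cdk2, stood at 5.41, 1.14, 1.56 and 5.34 CPM on day 0, at 7.91, 8.02, 9.54 and 8.53 CPM on day 3 and at 9.22, 9.47, 9.82 and 10.2 CPM on day 14, always above day 0. It had the highest change of the replication class on days 3, 5 and 7, with log2 fold changes of 1.34 ± 0.27, 1.02 ± 0.27 and 1.17 ± 0.27 (edgeR, adjusted p = 7.03e-05, 0.00171 and 0.000545). With the 8 libraries of a comparison alone, its calls on days 5, 7 and 12 were lost (adjusted p = 0.0856, 0.0669 and 0.0951). E2f1, the transcription factor that switches on replication genes, moved least by day 14. It stood at 13.4, 12.0, 12.4 and 13.2 CPM on day 0, at 18.6, 17.8, 17.97 and 18.7 CPM on day 10 and at 15.5, 12.5, 17.4 and 14.3 CPM on day 14, where 1 library lay inside the range of day 0. The log2 fold changes were 0.52 ± 0.09 (day 10) and 0.23 ± 0.09 (day 14) (edgeR, adjusted p = 1.35e-05 and 0.0247). The day 14 call was lost without day 14 replicate 1 (log2 fold change 0.21, adjusted p = 0.0605) or replicate 3 (0.15, adjusted p = 0.143). Brca1, the repair protein of replication forks, stood at 7.21, 2.73, 2.05 and 6.90 CPM on day 0 and 16.1, 17.2, 15.5 and 16.4 CPM on day 14, a log2 fold change of 1.79 ± 0.24 (adjusted p = 2.03e-07). For single genes an exact two-sided permutation test of 4 against 4 libraries cannot go below p = 0.0286, and 43, 35, 36, 45, 47 and 48 of the 49 genes reached it on days 3, 5, 7, 10, 12 and 14, each with all 4 libraries above all 4 of day 0. The share of all genes tested with all 4 libraries above day 0 was 28.2%, 23%, 19.9%, 19.5%, 18.6% and 23.4%.

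Between consecutive days, the edgeR fit of all 28 libraries called 0 to 8 members in a direction up to day 12 and 37 higher from day 12 to day 14. From day 3 to day 5, Cdc20, the activator of the anaphase-promoting complex, went from 32.7, 28.1, 29.9 and 32.1 to 23.8, 21.6, 22.8 and 23.3 CPM, without overlap. It and Cenpa, the centromeric histone, were the 2 members lower on day 5 (11.4% of all genes), by -0.42 ± 0.14 and -0.35 log2 units (edgeR, adjusted p = 0.0313 and 0.0147), and 0 were called without day 5 replicate 2. None was higher (12.9% of all genes), with 1 at an unadjusted p under 0.05 and 0 by DESeq2. From day 5 to day 7, 0 members were higher (13.9% of all genes) and 0 lower (14.6%) by edgeR, with 0 and 1 at an unadjusted p under 0.05 and 0 and 1 by DESeq2. From day 7 to day 10, 8 were higher (14.3%), namely Mki67, Cdc20, Aurkb, Mcm2, Mcm7, Pcna, Tyms and Tk1, and 5 to 7 when any 1 of the 8 libraries was left out, the lowest without day 7 replicate 1. Mki67 lost its call without any 1 library other than day 7 replicate 2, and Tk1 without any 1 library other than day 7 replicate 3 or day 10 replicate 2. Mcm2 lost it without day 7 replicate 4 and Pcna without day 7 replicate 1. Of these Aurkb had the largest step, from 12.3, 12.3, 12.8 and 11.4 to 17.97, 21.1, 16.4 and 20.1 CPM (log2 fold change 0.63 ± 0.14, edgeR, adjusted p = 0.00065). None was lower (18% of all genes), with 0 at an unadjusted p under 0.05 and 0 by DESeq2.

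From day 10 to day 12, 5 mitosis genes were higher (18.7% of all genes), namely Bub1b, Ccnb1, Cenpf, Kif11 and Nusap1, a microtubule-binding spindle protein, while 1 replication gene, E2f1, was lower (20.7%). Kif11 went from 35.0, 33.1, 31.1 and 34.5 to 40.3, 53.1, 47.5 and 49.5 CPM, a log2 fold change of 0.51 ± 0.15 (edgeR, adjusted p = 0.00664), and E2f1 from 18.6, 17.8, 17.97 and 18.7 to 16.7, 15.1, 15.3 and 15.0 CPM, a log2 fold change of -0.23 ± 0.09 (adjusted p = 0.0312). Neither pair of days overlapped for these genes. The 5 higher calls became 2 without day 10 replicate 2, 3 or 4, 1 without day 12 replicate 2, 3 without day 12 replicate 3 and 2 without day 12 replicate 4. The call on E2f1 was lost without any 1 of day 10 replicates 1 to 4 or day 12 replicates 2 to 4. From day 12 to day 14, 37 members were higher, 22 mitosis and 15 replication genes (19.9% of all genes), and 29 to 35 when any 1 of the 8 libraries was left out. Cdc20 led the mitosis class, from 29.0, 32.9, 26.3 and 32.4 to 54.2, 57.1, 59.1 and 48.2 CPM (log2 fold change 0.86 ± 0.14, edgeR, adjusted p = 1.79e-05), and Tk1 the replication class, from 24.8, 26.2, 23.6 and 26.7 to 44.8, 43.2, 41.3 and 38.8 CPM (0.73 ± 0.22, adjusted p = 0.00725). None was lower (25.3% of all genes), with 0 at an unadjusted p under 0.05 and 0 by DESeq2.

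Counts between later days differed between the fit of all 28 libraries and fits without day 0. The median SD of the members' log2 CPM was 0.555 on day 0 and between 0.083 and 0.111 on the other days, while that of all genes was 0.221 on day 0. A fit of the 24 libraries of days 3 to 14 alone, chosen after seeing the data, tested 17912 genes with its own scaling factors and estimate of the spread. It called 18 members lower from day 3 to day 5 (10 mitosis and 8 replication genes, beside 15.3% of all genes), among them Ccnb1, Plk1, Ube2c, Mcm5, Rrm2 and Ccne1, and 0 higher (16.5%). From day 5 to day 7 it called 5 lower (17.9%), Tpx2, Mcm3, Pcna, Rrm2 and Tk1, and 1 higher (17.5%), Kif11. From day 7 to day 10 it called 35 higher (20 mitosis and 15 replication genes, 18.1%) and 0 lower (21.4%). From day 10 to day 12 it called 15 higher (10 and 5, 21.5%) and 4 lower (24.1%), the replication genes Ccne1, Cdt1, E2f1 and Gins2. From day 12 to day 14 it called 46 higher (28 and 18, 22.8%), leaving out Ccne2, E2f1 and Chek1, and 0 lower (28.7%). At an unadjusted p under 0.05 in this edgeR fit, 1 member was higher from day 3 to day 5, and 0 were lower from day 7 to day 10 or from day 12 to day 14.

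The spread within day 0 was shared by nearly all members. Replicates 1 and 4 were the 2 highest day 0 libraries for 48 of the 49 genes, and the median ratio of the highest to the lowest day 0 library was 2.12, with a range from 1.12 to 4.60. Other measures split the same libraries. The summed CPM of 7 basal keratinocyte markers was 7176, 4008, 4116 and 8335 in day 0 replicates 1 to 4, that of 5 skeletal muscle markers 26363, 16381, 16701 and 27464, and that of 6 fibroblast markers 25002, 55970, 53733 and 14286. The 16 hair matrix and shaft markers summed to 2647, 847, 835 and 382 CPM, an order not shared with the members. The part of these mixtures in the comparisons with day 0 was not tested. When any 1 library of the pair of days was left out, the count of members higher than on day 0 stayed between 39 and 49.

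Cell type markers also moved with the days. The basal keratinocyte sum had medians of 5646, 3662, 3542, 3455, 4800, 4083 and 5051 CPM on days 0, 3, 5, 7, 10, 12 and 14. On the same days the fibroblast sum was 39368, 22399, 40673, 55387, 52855, 41655 and 17430, and the hair matrix and shaft sum 841, 29.6, 44.1, 1893, 428, 6564 and 6733. The skeletal muscle sum had a median of 21532 CPM on day 0 and of 4051 to 7599 on later days, and its lowest day 0 library, at 16381, was above the highest later library, at 9356. Day 0 was thus apart from all later days in muscle markers, as it was in most members, in the opposite direction. The sum of 6 neutrophil markers was 27.3, 4467, 1769, 715, 232, 19.5 and 16.2 CPM, and that of 6 wound-edge keratinocyte markers 478, 2879, 2229, 1745, 1515, 955 and 1568. That of 5 endothelial markers was 473, 811, 819, 657, 612, 395 and 374 CPM, above day 0 on day 3 and below it on day 14. Most members stood above day 0 on days 3 and 5, where the hair markers were lowest, and stood highest on day 14. Hair markers overlapped between days 12 and 14, at 5631 to 7426 and 5707 to 7618 CPM, while 37 members were called higher. From day 7 to day 10 the hair markers fell, while 8 members were called higher and 0 lower. Leukocyte markers ran against the members at the end, with 579 on day 0, 1943 on day 3 and 313 on day 14. In the lowest of the 28 libraries, basal keratinocyte markers summed to 3135 CPM and fibroblast markers to 14286, with no marker of either list at 0, so that the defining markers of skin were present throughout. The part of these cell types in the members' course was not tested.

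**Figure D4:**
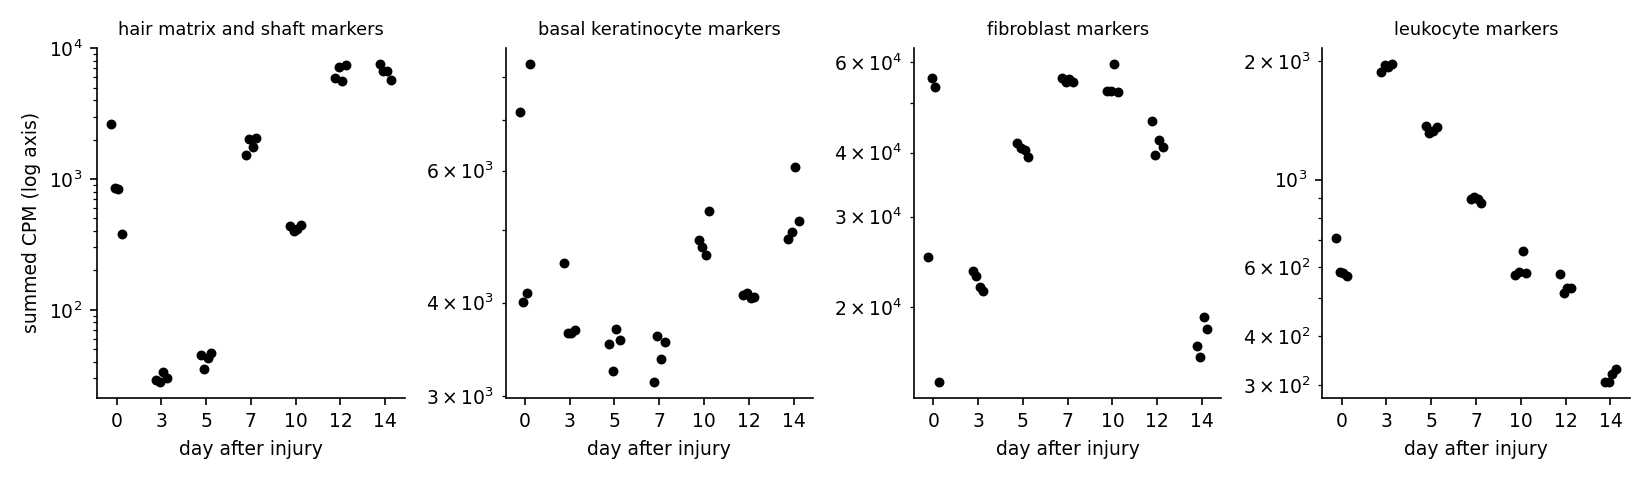
Summed CPM (log axis, a separate range in each panel) of hair matrix and shaft, basal keratinocyte, fibroblast and leukocyte markers in each of the 28 libraries by day. Hair markers fall to a median of 29.6 CPM on day 3 and stand at 6733 on day 14, while leukocyte markers peak at 1943 on day 3 and are lowest, at 313, on day 14.

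Other genes of the same machinery were mostly called higher than on day 0, except that on day 7 only 17 of 36 further replication genes were. Of 46 further mitosis genes, 45, 44, 43, 45, 45 and 45 were higher than on day 0 on days 3, 5, 7, 10, 12 and 14 (edgeR, adjusted p under 0.05, to be read beside the shares of all genes above). Those not called were Cdc25b on days 5 and 7 and Bub3 on day 7, while Pttg1, securin, which guards the cohesion of sister chromatids, was lower on all 6 days, by -0.42 on day 3 and -0.59 on day 14 (adjusted p = 1.12e-05 and 5.45e-08). The highest was Depdc1a, at 1.97 on day 3 and 2.60 on day 14. Of 36 further replication genes, 31, 22, 17, 34, 34 and 36 were higher and 0 lower by edgeR on the same days. They were led by Orc1 of the origin recognition complex on day 3 (1.51). On day 14 Uhrf1, which takes part in the copying of DNA methylation, led (2.02). The median log2 fold change was 1.03 and 0.53 for the further mitosis and replication genes on day 3 and 1.76 and 1.23 on day 14.

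Genes that open or brake the cycle went in both directions. Of 33 such genes, 15, 14, 14, 16, 21 and 23 were higher on days 3, 5, 7, 10, 12 and 14, or 45.5%, 42.4%, 42.4%, 48.5%, 63.6% and 69.7%, beside 31.8%, 29%, 25.6%, 23.5%, 21.7% and 28.2% of all genes. Lower were 10, 10, 8, 5, 2 and 4, or 30.3%, 30.3%, 24.2%, 15.2%, 6.06% and 12.1%, beside 34.8%, 30.6%, 24.8%, 26.9%, 25.6% and 34.5% of all genes, so that on days 3, 5 and 7 the lower share was near that of all genes. Ccnd1 and Ccnd2, D-type cyclins that carry growth signals into G1, were below day 0 on day 3, when most members were above it, while Ccnd3, the third D-type cyclin, was above it. Ccnd2 went from a mean of 242 ± 39 CPM (SD, n = 4) on day 0 to 106 ± 4.6 on day 3 and 384 ± 16 on day 14, and Ccnd1 from 112 ± 19 to 63.3 ± 1.5 and 209 ± 11. Their log2 fold changes were -1.195 and -0.82 on day 3 and 0.67 and 0.90 on day 14 (edgeR, adjusted p between 3.73e-12 and 2.64e-07). Ccnd3 went from 79.2 ± 3.5 CPM to 107.9 ± 3.9 on day 3 and 67.5 ± 5.7 on day 14, log2 fold changes of 0.44 and -0.23 (adjusted p = 1.29e-06 and 0.00343). Cdkn1c, the Cdk inhibitor p57, fell to 8.68 ± 0.66 CPM on day 3 from 33.6 ± 4.8, a log2 fold change of -1.95 (adjusted p = 1.05e-15), and stood at 78.6 ± 5.3 CPM on day 10 (1.23, adjusted p = 1.45e-11). Cdkn1b, the inhibitor p27, was lower on days 3, 5, 7 and 10, by -0.65 on day 3 (adjusted p = 3.16e-11), and Cdkn1a, the inhibitor p21, stood 0.02 log2 units above day 0 on day 3 and was lower on day 7 by -0.46 (adjusted p = 0.788 and 9.33e-07). Cdkn2a stayed below 1.2 CPM in every library.

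The Myc family and B-Myb differed in course. Mycn, a growth regulator known to be made in hair matrix, had mean levels of 2.76 ± 1.1, 0.246 ± 0.11, 1.10 ± 0.15, 4.07 ± 0.52, 10.5 ± 1.4, 22.9 ± 3.7 and 42.4 ± 4.0 CPM on days 0, 3, 5, 7, 10, 12 and 14 (SD, n = 4). The log2 fold changes of -3.47 (day 3) and 3.94 (day 14) (edgeR, adjusted p = 2.39e-11 and 1.11e-15) were the lowest and the highest of the 33 genes at those times. Myc stood at 40.0 ± 10 CPM on day 0 and 47.3 ± 1.1 on day 14 (log2 fold change 0.24, adjusted p = 0.0418). Mybl2, B-Myb, which acts with the complexes at CHR elements, went from 3.65 ± 2.0 CPM on day 0 to 8.32 ± 1.3 on day 3 and 16.995 ± 1.6 on day 14, log2 fold changes of 1.196 and 2.23 (adjusted p = 4.11e-05 and 1.96e-09).

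Levels in some libraries moved with gene length, most in one of day 5. The length that links the deposited FPKM to the counts was 11365 bases for Cenpf, 10257 for Mki67, 7813 for Cenpe and 6997 for Brca1, the longest of the 49. In day 5 replicate 4 the deviation of a gene's log2 CPM from the day mean ran against length, with a Spearman correlation of -0.62 over the 49 genes and -0.50 over the 18107 genes tested. Because deviations from a day mean sum to 0 over its 4 libraries, the positive values in replicates 1 to 3 add nothing to this. In the libraries of other days the correlation ran from -0.36 to 0.39 over the 49 genes and from -0.28 to 0.23 over all genes, with both ends over all genes on day 7 (replicates 4 and 1). These genes share their library and are not independent replicates. Cenpf, which coats kinetochores, stood at 21.2, 18.4, 19.5 and 14.1 CPM and Brca1 at 10.6, 9.60, 10.5 and 6.74 CPM in day 5 replicates 1 to 4. In both, replicate 4 was the lowest and lay inside the range of day 0. The part of gene length in the day 5 comparisons was not tested, and without that library 44 members were higher on day 5 than on day 0, the same number as with it.

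**Figure D5:**
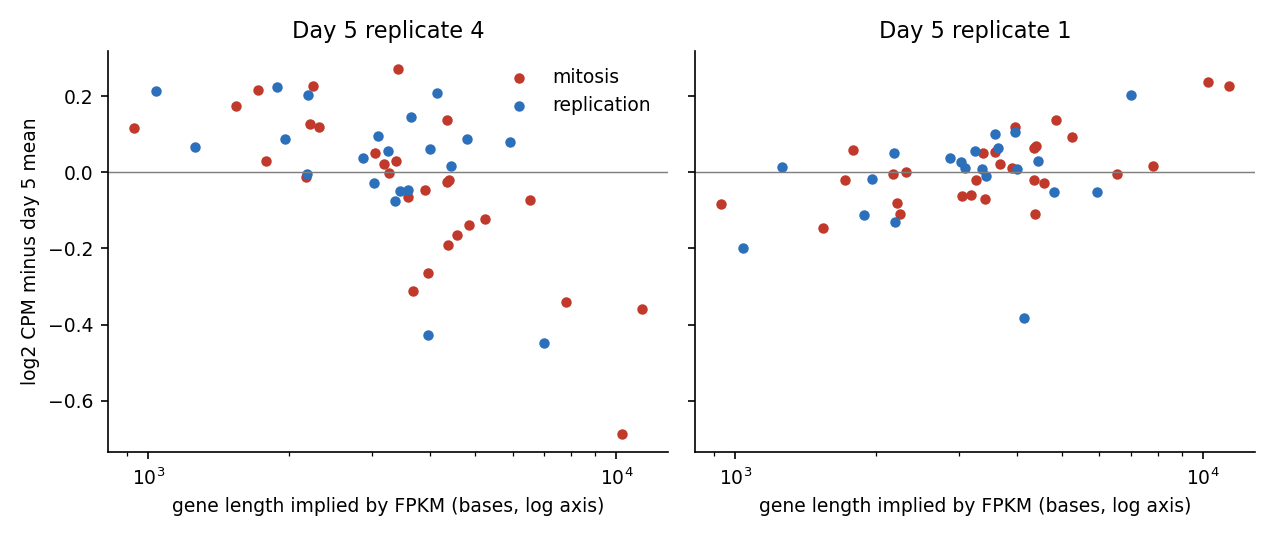
Deviation of each of the 49 genes' log2 CPM from its day 5 mean against the gene length implied by FPKM (bases, log axis) in day 5 replicate 4 (left) and replicate 1 (right); red, mitosis genes; blue, replication genes. The longest genes, Cenpf and Mki67, lie below 0 in replicate 4 (Spearman correlation -0.62) and above 0 in replicate 1 (0.45), where the sign is tied to that of replicate 4 by the shared mean.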

How the data were processed

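Total RNA of skin was extracted with TRIzol, and 28 libraries were made with a VAHTS kit (Universal V6). Deposited by the authors were raw counts per gene symbol and FPKM values, and each FPKM equals the count divided by a fixed gene length and the library total. The submitters' processing notes name fastp, R 3.2.0 and the genome build mm10. The study's methods name DESeq2. The aligner, counter, annotation and strandedness are not given in the sources used here, so that overlapping genes can share reads. No value columns were left unused. Groups and replicate numbers came from the labels and sample titles, and the members and gene lists were chosen with earlier results of these data known.

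The deposited counts were fitted in edgeR 4.0.16 under R 4.3.3 (TMM, filterByExpr on the 7 groups, glmQLFit and glmQLFTest, two-sided, Benjamini-Hochberg over 18107 genes), with all 28 libraries in 1 fit and no covariates. log2 CPM used a prior count of 2. Depth was nearly even, and P-values rest on 1 spread per gene between these libraries, shared by all 7 groups. Replicates were distinct, with a lowest median chi-square per gene of 1.47 over 42 pairs where 0.455 is expected from sampling noise alone. The test was checked on simulated counts with 200 changed genes for day 3 against day 0, where edgeR recovered 79 of 100 genes changed 2-fold and 100 of 100 changed 4-fold, with 11 false calls among 17577 genes. The simulation gave all genes and libraries the same dispersion, so that it does not check calls under the wider spread of day 0. Alternatives were DESeq2 1.42.0, DESeq2 size factors, no composition normalization, no filter, the 8 libraries of a comparison alone, the replicate number as a block, each library left out in turn and, chosen after seeing the data, the 24 libraries without day 0. Genes named with values per library were 16 chosen by function, the highest and lowest of each class in each comparison and, from further lists, the highest and lowest of each list and 8 cell cycle regulators. Hmmr, Chek1, E2f8, Gins2, Ect2 and Kif2c, also named by that rule, are given by their values in the plots or their counts. Rrm1 and Ccnd3 values, Cenpf, Brca1, Cdc20, Kif11 and Ube2c values on further days, Cdc25b and Bub3, and the choice of 5 promoters, were picked after values were seen. Promoter windows came from RefSeq on GRCm38.p6.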

Additional observations from a re-analysis of the deposited data

Results flagged for a closer look

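Of 238 groups of 4 libraries examined (a gene or class measure on 1 day), 11 held a library set apart from the other 3 by more than Dixon's 95% limit, and chance alone sets apart about 1 in 20 groups. Day 5 replicate 4 accounted for 4 of the 11. There the log2 CPM of Mki67 was 6.14, with the other libraries between 7.02 and 7.08. Birc5 was 4.59, with the others between 4.20 and 4.25. The mean over the mitosis genes was 4.46, with the others between 4.51 and 4.53, and the mitosis minus replication difference was 0.0668, with the others between 0.154 and 0.168. The part of gene length in these values was not tested.

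The other 7 each involved 1 measure. In log2 CPM, Foxm1 was 4.68 in day 12 replicate 3 (others 4.79 to 4.82), Pcna 6.84 in day 3 replicate 1 (others 6.75 to 6.76) and Tyms 4.26 in day 7 replicate 4 (others 4.35 to 4.36). Ccne1 was 2.92 in day 10 replicate 3 (others 3.08 to 3.09), E2f1 4.07 in day 12 replicate 1 (others 3.91 to 3.94) and Cdc20 4.46 in day 7 replicate 4 (others 4.40 to 4.41). The mitosis minus replication difference was 0.197 in day 3 replicate 3 (others 0.226 to 0.228).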

How the results depend on the processing

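Counts of members higher or lower than on day 0 kept their size, within 1.5 times, under every alternative run, with the largest fall in the 8 libraries alone, at 40, 33, 29, 46, 46 and 49 higher on days 3, 5, 7, 10, 12 and 14. The replicate block gave 46, 45, 43, 49, 48 and 49. The replicate numbers did not pair the libraries, since the correlation of deviations over 84 same-numbered pairs ran from -0.0762 to 0.177 with a median of -0.000911. Against day 0, the block moved 2 results of single members past the threshold. From day 7 to day 10 it called 9 members higher, against 8 without it. Counts between consecutive days moved. From day 3 to day 5, the members lower were 2, against 16 with the 8 libraries alone, 18 without day 0 and 0 to 3 with 1 library left out, and the members higher 0 to 1 with 1 left out. From day 5 to day 7, the members higher were 1 with the 8 libraries alone and 1 without day 0, and the members lower 1 with DESeq2, 3 with the 8 libraries alone and 5 without day 0. From day 7 to day 10, the members higher were 36 with the 8 libraries alone, 35 without day 0 and 5 to 7 with 1 left out. From day 10 to day 12, the members higher were 10 without composition normalization, 20 with the 8 libraries alone, 15 without day 0 and 1 to 4 with 1 left out, and the members lower 0 without composition normalization, 0 without the filter, 3 with the 8 libraries alone, 4 without day 0 and 0 to 1 with 1 left out. Single genes turned direction in 2 cases, neither past the threshold with all libraries or where it turned: Mcm7 on day 5 against day 0 ran from -0.0193 without day 0 replicate 3 to 0.227 without replicate 1, where it passed the threshold, and Ttk on day 7 against day 0 from -0.0454 without day 0 replicate 4 to 0.170 without replicate 2. With the 8 libraries alone 35 results of single members fell short of the threshold, all against day 0 and most on days 5 and 7, and with 1 library left out 115 fell short and 35 passed it. These counts cover all members against day 0 but, between consecutive days, only results already called with all libraries. Gains between consecutive days are thus not among the 35 that passed. The cause of these shifts was not tested.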
